A study of Arabidopsis thaliana with 4 samples.

Results

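AKINBETA1 (AT5G21170, also KINbeta1) encodes a beta subunit of SnRK1, and its transcript stood far higher in cut Arabidopsis inflorescences after 24 h in the dark than at harvest. The gene was chosen by its measured rise between the 2 groups of arrays, so its levels and change are described here without a test. It is 1 gene with 1 probe set of the 13513 probe sets that the platform annotation pairs with a single gene, on an array of 22746. The RefSeq gene table places it on chromosome 5.

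SnRK1 is the plant relative of yeast SNF1 and animal AMPK, a kinase complex that is active when energy is short and is held back by sugars and sugar phosphates. A catalytic alpha subunit is joined by a beta subunit, which serves as scaffold and helps to set where the complex sits and what it meets, and by a regulatory subunit of the gamma type. When active it favours breakdown of amino acids, lipids and cell contents and restrains biosynthesis and growth. Transcripts of AKINBETA1 are known to accumulate in darkness and to decline with light or sugar, whereas KINbeta3, a short plant form, lacks the carbohydrate-binding part that the other beta subunits carry.

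RNA came from immature inflorescences on the primary bolts of 5-week-old wild-type plants of the ecotype Ler-0, grown with 16 h of light a day. All inflorescences were cut 11 h into the light period. The T0 group (2 arrays) was frozen at once, and the T24 group (2 arrays) was kept for 24 h at 21 °C in a closed black box on paper wetted with 50 mL of water. For each time point 10 inflorescences from separate plants were pooled. The titles call the arrays of a group biological replicates 1 and 2, without stating whether each had its own pool, so the spread between them may be partly technical. Both groups were cut. Time since cutting, darkness, the lost supply from the plant and the wet box all separate the groups and cannot be told apart, and in whole inflorescences neither can a change in the cells present and a change in RNA per cell.

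Values are log2 signals made by the submitters with RMA, a standard procedure of background correction, normalization and probe summary, and a change is the T24 mean minus the T0 mean. Array medians ran from 6.08 to 6.29, and arrays of a group correlated across probe sets at 0.954 (T0) and 0.961 (T24), against 0.839 to 0.873 between groups. Of the marker genes listed to check the tissue, the floral patterning genes SPT and SPL had means above 5 on the log2 scale in both groups, UFO and CLV3 lay under 5, near the background, and the root gene PYK10 lay under 4. Some markers of other cell types moved with the groups, while the tapetum gene AT5G07230 and the pollen gene AtVEX1 overlapped between them and had no call. Of 3 tapetum genes 2 were lower at T24. The log2 of the summed linear signals of all 3 was 12.09 to 13.73 at T0 and 8.34 to 10.78 at T24. Of 3 pollen genes 2 were higher (the same sum over all 3 was 10.13 to 11.24 at T0 and 13.01 to 13.10 at T24). Both leaf photosynthesis genes were lower (sums of 13.05 to 13.22 and 11.34 to 11.38). The single measured storage protein gene was higher (3.27 to 4.32 and 11.61 to 12.36). Each call was by limma's adjusted p under 0.05, by which 6.02% of single-gene probe sets were higher and 5.94% lower. The part of these shifts in the level of AKINBETA1 was not tested.

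The log2 signal of AKINBETA1 was 7.11 and 7.53 on the T0 arrays and 12.11 and 12.46 on the T24 arrays. Each T24 array lay far above both T0 arrays, a separation in this direction that 26.7% of single-gene probe sets showed. The group means were 7.32 ± 0.30 and 12.29 ± 0.25 (SD, n = 2 each), a change of 4.97 ± 0.26 (SE of the limma fit), or 31.3-fold. On the linear scale the signal went from 138 and 185 units to 4430 and 5647 units. The smallest difference between any T24 and any T0 array was 4.58 and the largest 5.35 on the log2 scale. The smallest was 10.8 times the larger of the replicate differences, which were 0.42 at T0 and 0.35 at T24, with replicate 2 the higher array in both groups. The change was 5.00 between the arrays numbered 1 and 4.93 between those numbered 2. The pooled SD within groups was 0.27, beside a median of 0.24 over single-gene probe sets.

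**Figure D1:**
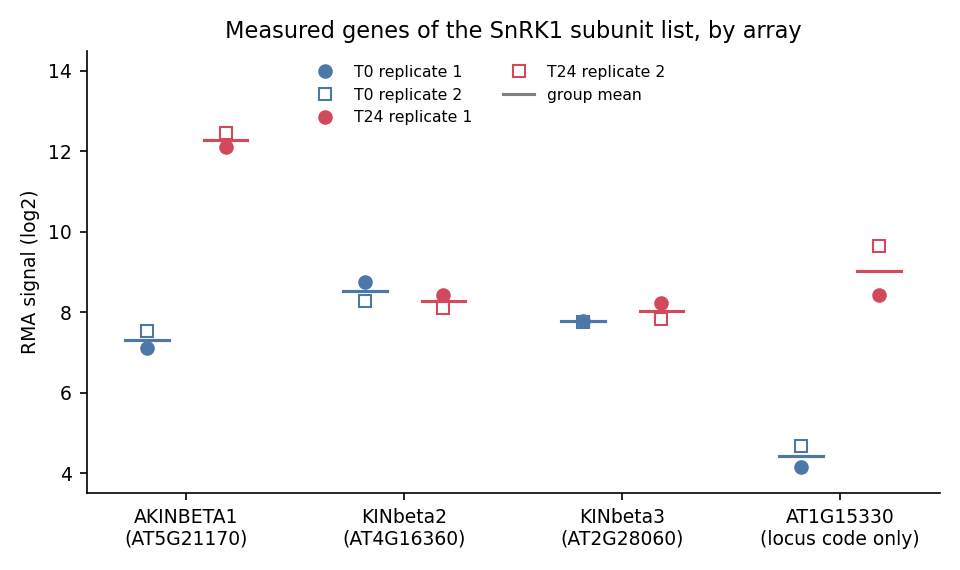
Each point is the RMA signal (log2, vertical axis) of 1 array for a measured gene of the SnRK1 subunit list (horizontal axis), T0 in blue and T24 in red, circles for replicate 1, squares for replicate 2 and bars for group means. AKINBETA1 sits at 7.11 and 7.53 at T0 and at 12.11 and 12.46 at T24, AT1G15330 also separates, and the points of KINbeta2 and KINbeta3 lie close together in both groups. Heights compare groups within a gene, not genes with each other.

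Among the 13513 single-gene probe sets AKINBETA1 went from an upper-middle place to the top of the order. At T0 its mean exceeded that of 70.5% of them (68.0% and 73.4% on the single arrays), and at T24 that of 99.7% (99.5% and 99.8%), with 45 probe sets above it. Probe sets differ in how well they bind, so this is an order of signals and not of transcript numbers. Of those 45, only 3 had started at or below its T0 mean: AT4G27450, AT2G20670 and AT2G05540. These 3 genes, picked out after their values were seen, carry no name in the gene table.

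By the size of the change AKINBETA1 was number 21, with 20 single-gene probe sets rising more, from PAP85 at 8.19 down to MCCA at 4.98, and number 6 of the 1557 genes with a symbol. The median change over single-gene probe sets was 0.00 and the 90th percentile 1.08. Most of the 20 larger rises began from a dim signal: 13 had a T0 mean under 5, where RMA values lie near the background, and only 1, MCCA, had a T0 mean at least as high as AKINBETA1. Among the 2098 single-gene probe sets whose T0 mean lay within 0.5 of its own, the median change was -0.02 and the 90th percentile 1.34. In that window AKINBETA1 had the second highest change, after MCCA and before SIS.

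**Figure D2:**
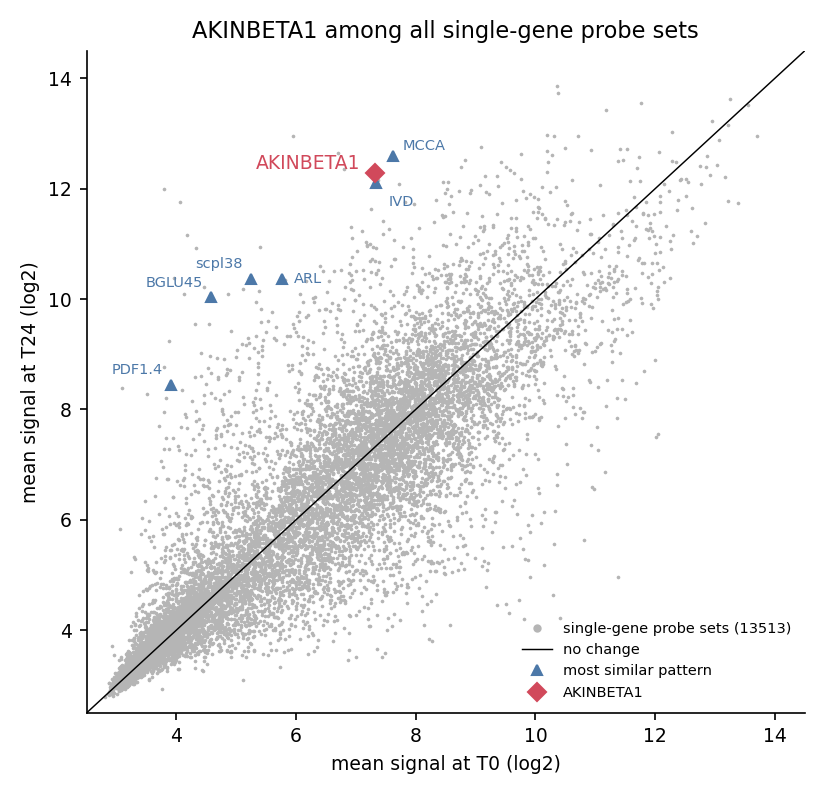
Each grey point is a single-gene probe set, with its mean signal at T0 (log2) across and at T24 (log2) upward; the line marks no change. AKINBETA1 (red diamond, 7.32 and 12.29) lies at the upper edge of the cloud beside MCCA and IVD, while the other genes of most similar pattern (blue triangles) rise from lower T0 signals.

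The genes next to AKINBETA1 in the order of change, among those with a symbol, were scpl38 and MCCA above it and SIS and IVD below it. MCCA encodes the biotin-carrying subunit of methylcrotonyl-CoA carboxylase, and IVD encodes isovaleryl-CoA dehydrogenase, the enzyme of the step before it in leucine breakdown. MCCA had signals of 7.46 and 7.77 at T0 and 12.48 and 12.69 at T24. Its change of 4.98 ± 0.22 (SE) differed from that of AKINBETA1 by far less than either standard error. IVD had 7.58 and 7.08 at T0 and 12.51 and 11.70 at T24, a change of 4.78 ± 0.38 (SE). The salt-induced gene SIS rose by 4.78 ± 0.46 (SE) with its T0 arrays at 7.96 and 6.78, and the carboxypeptidase-like gene scpl38 by 5.13 ± 0.55 (SE) with its T24 arrays at 9.69 and 11.05. The order among these 5 genes rests on differences smaller than their standard errors.

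Likeness of pattern was measured as the Euclidean distance over the 4 arrays between signals from which each gene's own T0 mean had been taken. With 2 groups of 2 arrays it finds genes of similar change and similar replicate differences, and says nothing of shared control. MCCA was the nearest of all 13512 other single-gene probe sets, at a distance of 0.12. Like AKINBETA1 it was higher on the replicate 2 array in both groups. Next among genes with a symbol came the organ growth regulator ARL (0.60), the defensin-like gene PDF1.4 (0.62) and the beta-glucosidase gene BGLU45 (0.68). Then followed scpl38 (0.76) and IVD (1.08). IVD was number 19 among all single-gene probe sets and differed in being lower on the replicate 2 array in both groups. ARL went from 5.77 and 5.75 to 10.23 and 10.51, and PDF1.4 from 3.70 and 4.12 to 8.20 and 8.70. BGLU45 went from 4.38 and 4.78 to 9.81 and 10.25. The T0 means of PDF1.4 and BGLU45 lay under 5, near the background, so the sizes of their changes and their distances are approximate. These 6 genes were selected for their likeness to a gene that rose, so their own rises are descriptions.

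**Figure D3:**
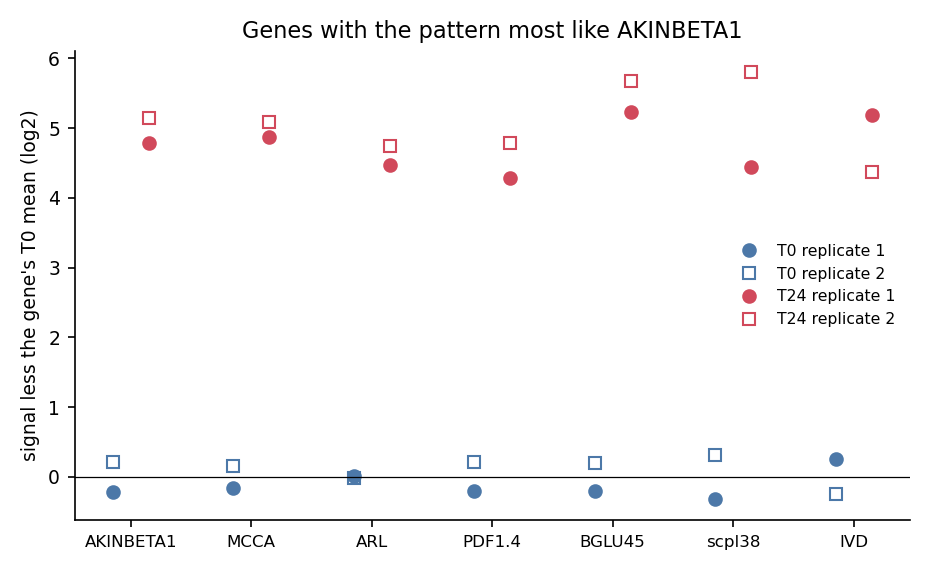
For AKINBETA1 and the 6 genes of most similar pattern (horizontal axis), each point is the signal of 1 array less the gene's T0 mean (log2, vertical axis), T0 in blue and T24 in red, circles for replicate 1 and squares for replicate 2. The T24 points of AKINBETA1 and MCCA nearly coincide, with squares above circles, and IVD shows the opposite replicate order.

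How far genes of SnRK1 and of related pathways and protein families moved was asked of 120 further genes in 10 lists. Of these, 27 were measured by a single-gene probe set. Of these 27, 2 rose and 4 fell at an adjusted p under 0.05 in limma, fitted and adjusted over all 22746 probe sets. Over the whole array 13.2% of probe sets passed, and of single-gene probe sets 12.0% passed, 6.02% higher and 5.94% lower. The median change over the 27 was -0.57, beside 0.00 over all single-gene probe sets. Of the 27, 13 came from 1 list, the FCS-like zinc finger proteins described below, whose median was -0.64. The genes that passed were AT1G15330 and AT3G15450 (higher) and AT4G17670, AT3G22550, bZIP44 and ATSPS4F (lower). With any 1 array left out no probe set passed, and limma's adjusted p for these 6 then lay between 0.054 and 0.19.

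Of the other beta subunits, both were measured and neither passed. KINbeta2 (AT4G16360), which like AKINBETA1 carries a carbohydrate-binding module, had signals of 8.75 and 8.29 at T0 and 8.43 and 8.11 at T24. Its groups overlapped. Its change was -0.25 ± 0.26 (SE), with a 95% interval of -0.97 to 0.47 and an adjusted p of 0.627 in limma. KINbeta3 (AT2G28060), the short form, had 7.78 and 7.76 at T0 and 8.23 and 7.84 at T24. Its T24 arrays lay just above its T0 arrays, an order that 26.7% of single-gene probe sets showed. Its change was 0.26 ± 0.22 (SE), with a 95% interval of -0.34 to 0.87 and an adjusted p of 0.521 in limma. Taken as a ratio within arrays, AKINBETA1 gained 5.22 ± 0.56 over KINbeta2 and 4.70 ± 0.43 over KINbeta3 on the log2 scale (SE over arrays, n = 2 each). The smallest gain between any T24 and any T0 array was 4.44 and 4.11. These ratios contain the change by which AKINBETA1 was chosen and were not tested.

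The subunit list also held AT1G15330, entered there as a relative of the gamma subunit and known to the gene table by its locus code only. It rose from 4.16 and 4.67 at T0 to 8.42 and 9.64 at T24. Its groups did not overlap, and the T24 arrays differed by more than the T0 arrays. The change was 4.62 ± 0.50 (SE), or 24.5-fold, with an adjusted p of 0.0195 in limma, and since the T0 mean lay under 5 its size is approximate. Of the 3 pollen markers given above 2 were also higher, where 6.02% of single-gene probe sets were called higher. AtVEX1 overlapped between the groups and had no call. The part of pollen in the change of AT1G15330 was not tested. The alpha subunits and the main gamma-type subunits are not analysed here, as no single-gene probe set was paired with them, and the same holds for the activating kinases and partners of SnRK1, the enzymes of trehalose 6-phosphate metabolism and the SnRK2 kinases.

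Of 13 measured loci listed as FCS-like zinc finger proteins, a plant family of adaptors that bind SnRK1, 0 rose, 2 fell and 11 did not pass. Of all single-gene probe sets 12.0% passed in either direction, 5.94% of them all being lower. The list was drawn up from general knowledge, and the gene table carries its measured loci by code only. AT4G17670 went from 7.86 and 7.71 to 5.63 and 5.20, a fall without overlap of 5.16-fold (-2.37 ± 0.23, SE; adjusted p = 0.0177 in limma). AT3G22550 went from 7.97 and 7.37 to 5.26 and 5.63, or 4.67-fold lower (-2.22 ± 0.30, SE; adjusted p = 0.027 in limma). The list's median change was -0.64, beside 0.00 over all single-gene probe sets. In 11 of the 13 the change was below 0, as deposited and under both other scalings. Of all 13513 single-gene probe sets 6764 lay below 0 as deposited, 6773 under quantile scaling and 4824 under median centring. The list's changes ran up to 1.11 for AT1G19200, which had no call.

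The group C and S1 bZIP transcription factors pair with each other and act in the low-energy response downstream of SnRK1. Of 9 listed genes 2 were measured, and they went opposite ways. bZIP44 fell from 9.87 and 10.08 to 8.91 and 8.53 (-1.25 ± 0.23, SE; adjusted p = 0.0449 in limma), and this call was lost with arrays centred on their medians (adjusted p = 0.0511). BZIP53, a factor that switches on proline and asparagine metabolism genes, stood at 8.72 and 9.27 and at 10.67 and 9.95, without overlap. Its change of 1.31 ± 0.36 (SE) did not pass (adjusted p = 0.0951 in limma). Of 16 listed sugar starvation markers only 1 was measured, AT3G15450, which rose from 10.03 and 10.72 to 13.86 and 13.60 (3.35 ± 0.31, SE; adjusted p = 0.0168 in limma). Its groups did not overlap. Over single-gene probe sets 6.02% were called higher and 5.94% lower, and in 26.7% both T24 arrays lay above both T0 arrays.

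Of 9 listed genes for enzymes of the families that SnRK1 is known to phosphorylate, 2 were measured and 1 of them fell. Of all single-gene probe sets 5.94% were called lower. ATSPS4F, a sucrose phosphate synthase, went from 7.44 and 6.69 to 5.10 and 4.98, or 4.07-fold lower (-2.02 ± 0.32, SE; adjusted p = 0.0333 in limma). F2KP, the enzyme that makes and breaks fructose 2,6-bisphosphate, a regulator of sucrose synthesis, stood at 9.57 and 9.34 and at 10.30 and 10.72. Its groups did not overlap, but its change of 1.06 ± 0.24 (SE) did not pass (adjusted p = 0.0663 in limma). Both T24 arrays lay above both T0 arrays in 26.7% of single-gene probe sets.

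TOR is the growth-promoting kinase that SnRK1 opposes. Of the 11 genes in its list 2 were measured, RAPTOR1 and RAPTOR2, which encode alternative forms of TOR's substrate-binding partner. RAPTOR1 had 5.77 and 6.64 at T0 and 6.49 and 7.64 at T24, with overlap. RAPTOR2 had 6.50 and 7.04 at T0 and 5.53 and 5.95 at T24, without overlap. Neither passed, at 0.86 ± 0.53 and -1.03 ± 0.30 (SE; adjusted p = 0.383 and 0.106 in limma). Of 11 listed genes for other proteins with a starch-binding module of the kind found in AKINBETA1, 4 were measured. Among these 4, 0 were called and 0 had an unadjusted p under 0.05 in limma, which 27.6% of single-gene probe sets had. The brightest, the starch branching enzyme gene SBE2.2, had 8.66 and 9.01 at T0 and 7.32 and 8.31 at T24 (-1.02 ± 0.41, SE; adjusted p = 0.196 in limma). The remaining 3 changes lay between -0.24 and -0.06.

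**Figure D4:**
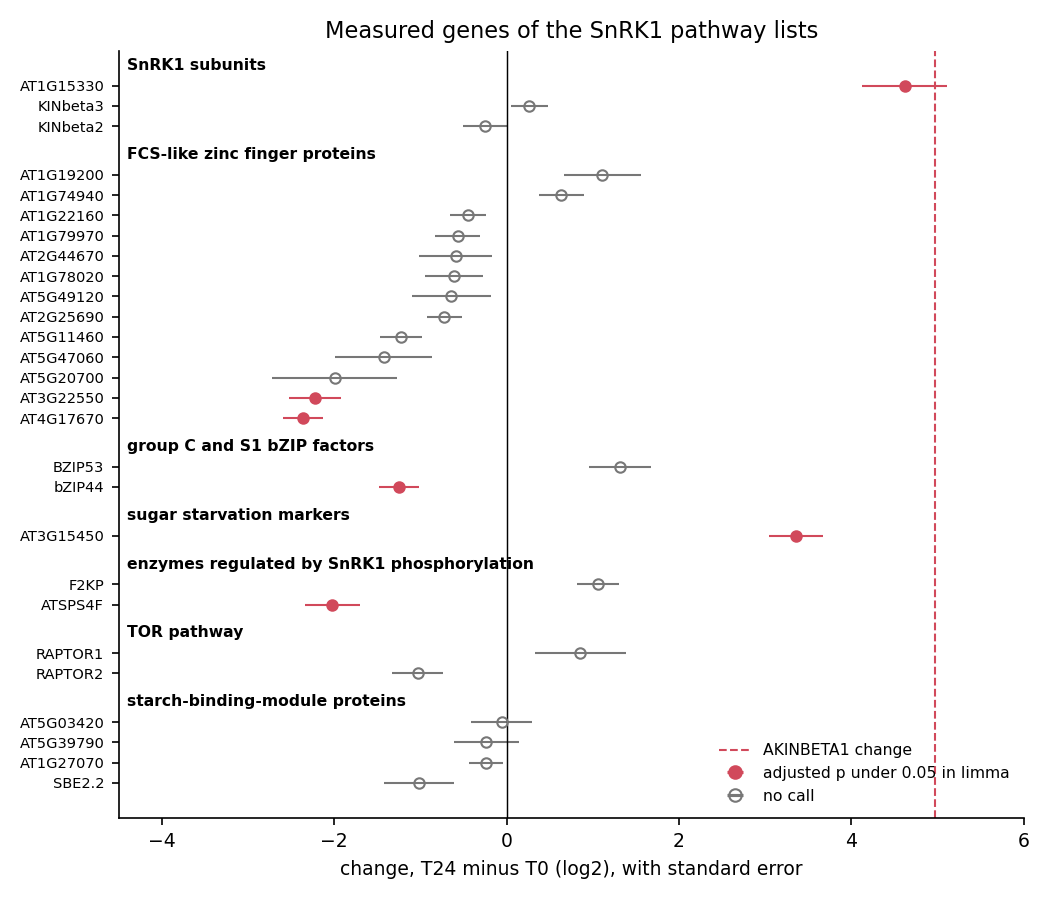
Change from T0 to T24 (log2, horizontal axis) with its standard error for each measured gene of the pathway lists (vertical axis, grouped by list), filled red where limma's adjusted p was under 0.05. The dashed line marks the change of AKINBETA1 at 4.97. AT1G15330 at 4.62 and AT3G15450 at 3.35 lie nearest to it.

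On chromosome 5 the nearest genes measured by name were AT5G21130, 5 genes before AKINBETA1 in RefSeq order, and AT5G22280, 54 genes after it. The next ones were AT5G21105 and AT5G22310. Changes were 0.24, 0.15 and 0.04 for AT5G21130, AT5G22280 and AT5G21105, without a call. AT5G22310 rose by 1.85 ± 0.21 (SE; adjusted p = 0.0201 in limma). Of the 5 nearest measured genes on each side it was the only one called, where 12.0% of single-gene probe sets were, and the median change of these 10 was 0.02. With any 1 array left out this call was lost as well. The genes directly beside AKINBETA1 are not analysed here.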

How the data were processed

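The authors deposited 1 table of log2 values per probe set and array, made with RMA per the submitters' processing notes; its version is not given in the sources used here. That the values are on a log2 scale follows from RMA's normal output and their range (2.71 to 14.44). Detection calls are lacking, and means under 5, near the background, made up 35.5% of the table. Precision is limited by having 2 arrays a group. Groups and replicate numbers came from the titles.

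The platform annotation named the probe sets: 13513 had 1 gene, 503 several (named for none) and 8730 none here. Of the 13513, 13436 were found by gene identifier in RefSeq's TAIR10.1 gene table, used for names, chromosome and gene order. A gene with several probe sets was represented by the brightest.

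The difference T24 minus T0 was estimated for all 22746 probe sets with limma 3.58.1 (lmFit, eBayes, no filter, no covariate) in R 4.3.3, with Benjamini-Hochberg adjustment and calls at 0.05; the fit was tested on simulated data. Intervals use its 4.06 degrees of freedom. Named genes were AKINBETA1; all measured subunits and partners; from other lists up to 3 called genes and 1 of the other direction, or the brightest; the 6 nearest patterns; 2 genes with a symbol on each side in the order of change; and 2 measured chromosome neighbours on each side. The gene, lists and rules were chosen with earlier results of these data known. Alternatives were the replicate block, quantile scaling, median centring, trended and robust eBayes, a mean of at least 5, 1 probe set per gene, a threshold of 0.01, and each array left out.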

Additional observations from a re-analysis of the deposited data

How the results depend on the processing

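The change of AKINBETA1 stayed between 4.91 (quantile scaling) and 5.12 (median centring, which moves all changes by 0.16) and between 4.76 and 5.18 with 1 array left out; its place in the order of change was number 20 or 21 with all arrays and 16 to 30 with 1 left out. Ranked among genes with a symbol it was number 6, fewer genes being compared. Of the 6 genes of most similar pattern, 5 remained when the mean over the 4 arrays was taken off in place of the T0 mean. The 3010 calls over all probe sets stayed within 1.5 times under both scalings, the trend, the robust fit and the filter; they were 1634 with 1 probe set per gene, fewer being tested, and 0 at an adjusted p of 0.01 (3010 at 0.05). In the paired fit (replicate block) 6528 passed, 3009 of them shared, and 12 of the 27 listed genes in place of 6. The listed genes gained there were AT1G19200 and RAPTOR1 (higher) and AT5G20700, AT5G11460, AT2G25690 and RAPTOR2 (lower). Replicate differences at T0 and T24 correlated at 0.635 across probe sets, but there are only 2 pairs and the labels do not tie a number to a batch. With 1 array left out 0 probe sets and 0 listed genes passed in limma, with 4888 to 5942 probe sets at an unadjusted p under 0.05. Under median centring 58.2% of calls were higher, against 48.3%. Without the block, the filter added a call for AT5G11460 (adjusted p 0.0483), and bZIP44 lost its call under median centring (adjusted p 0.0511) and, like every other probe set, at the 0.01 threshold.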

Other observations

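AT3G15440 stood next below AKINBETA1 in the order of change among all single-gene probe sets. It went from 3.83 and 3.77 at T0 to 9.49 and 8.03 at T24, a change of 4.96 ± 0.54 (SE) whose size and rank are approximate, since the T0 signals lie near the background. In RefSeq order it is the gene directly beside AT3G15450, the measured sugar starvation marker, with 0 genes between them. AT3G15440 was picked out for its change, after its values had been seen, so that change is a description with no test.

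Beyond the group C and S1 factors, 12 other genes carry a bZIP symbol, and limma called 0 of them, where it called 12.0% of single-gene probe sets. At an unadjusted p under 0.05 there were 4, and 27.6% of single-gene probe sets lay under it. This set was also put together after the data had been seen. Their median change was 0.11, and 7 had a mean under 5. The changes ran from -0.77 (bZIP52) to 1.14 (BZIP61). The endoplasmic reticulum stress factors BZIP60 and BZIP28 stood at 0.96 ± 0.23 and 0.59 ± 0.19 (SE; adjusted p = 0.0723 and 0.128 in limma). Both had T24 arrays above T0 arrays, as had 26.7% of single-gene probe sets. BZIP17, of the same response, stood at -0.15 ± 0.53 (SE).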
